A study of Homo sapiens with 2 samples.

Results

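DRAIC is a long noncoding RNA that was modeled here as a chain of 1735 nucleotides (nts), and the pairs described below are those whose partners both lie in nts 759 to 1107. This stretch is the part of the SHAPE-probed RNA that follows the ABC hairpin (nts 705 to 758), the element that holds the A + B sequence studied for binding to IKKα. Members were chosen by position only, with no limit on probability. They were 256 of the 3469 pairs listed for the whole RNA. A further 531 listed pairs had 1 nt in the stretch and the other elsewhere, and 2682 had none. Exon 4 contributed nts 759 to 1034, at chr15:69565252-69565527 (GRCh38, plus strand), and exon 5 contributed nts 1035 to 1107, at chr15:69570740-69570812. The intron between them has 5212 nts. GENCODE release 44 annotates 74 transcripts of DRAIC. Of these, 43 join these exon ends and 42 hold all 349 nts of the stretch in a row.

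The RNA came from LNCaP cells, an established prostate cancer cell line. Total RNA freed of protein was folded for 20 min at 37 °C and divided into a 5NIA aliquot (25 mM in the sample labels, a higher concentration in the methods) and a DMSO control aliquot, each held for 10 min at 37 °C. There was 1 library for each, both from DRAIC-specific primers, and the authors read both into 1 structural model. The values therefore have no replicate error, no interval and no test, and all comparisons below are descriptions of that model. RNA in this assay has no bound protein, and the model is of 1 splice form.

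RNA folds by pairing of G with C and A with U, and by the weaker G–U wobble. Stacked pairs form a helix, and the nts between its strands form a hairpin loop or, within a strand, a bulge or internal loop. SHAPE reagents such as 5NIA acylate the 2′-hydroxyl of flexible nts, so that reactive nts are usually unpaired, and the reactivities can be given to a folding program as restraints. The program weighs all foldings and returns a probability for each pair, which is near 1 when nearly all foldings hold it. Long noncoding RNAs often hold short well-folded elements among stretches that can fold in several ways.

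The stretch divided near the exon junction, at nt 1018 in exon 4. The exon 5 nts were held almost entirely by 1 long helix that starts in the last nts of exon 4. The exon 4 nts upstream of it formed 5 short hairpins, and the rest of their pairing was with partners outside the stretch, in weaker pairs within it, or in 2 pairs above 0.5 that are too few for a helix. A helix here is a chain of at least 3 nested pairs above 0.5 with at most 10 unpaired nts between successive pairs. The 6 helices held 51 of the 53 member pairs above 0.5. They are shown from 5′ to 3′ because their strands and loops are the structures to which all values below refer. Capitals mark the paired nts of each helix.
Hairpin 815-828: CACgaauuuaaGUG
Hairpin 831-847: GCUcaacaacgaaaAGC
Hairpin 888-905: UGUAUuuaaaaauAUACA
Hairpin 921-955: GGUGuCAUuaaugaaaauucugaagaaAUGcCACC
Hairpin 966-982: AACGCaccuacGCuGUU
Junction helix 1018-1106: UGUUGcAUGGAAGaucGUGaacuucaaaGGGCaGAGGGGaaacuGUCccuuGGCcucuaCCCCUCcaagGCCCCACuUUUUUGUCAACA
The first 5 lie in exon 4, between chr15:69565308-69565321 for the most 5′ hairpin and chr15:69565459-69565475 for the most 3′ of them. The junction helix covers chr15:69565511-69565527 in exon 4 and chr15:69570740-69570811 in exon 5.

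Among the 256 members, probabilities ran from 0.00102 to 1.00 with a median of 0.0304. Most members were weak alternatives, since 157 (61.3%) had a probability of at most 0.1. Above 0.5 there were 53 members, 20.7% of the 256, beside 9.25% of all listed pairs. Above 0.95 there were 30 members (11.7%), beside 1.93% of all listed pairs. Of all listed pairs, 2682 have no nt in the stretch, and most nts outside it were not probed. These shares therefore set probed RNA beside mostly unprobed RNA. For pairs with 1 nt in the stretch, 6.59% were above 0.5 and 0 were above 0.95. The ABC hairpin, by contrast, had few listed alternatives, with 19 of its 22 listed pairs above 0.5. The values nearest to the thresholds were 0.919 and 0.956 around 0.95, and 0.493 and 0.546 around 0.5.

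**Figure D1:**
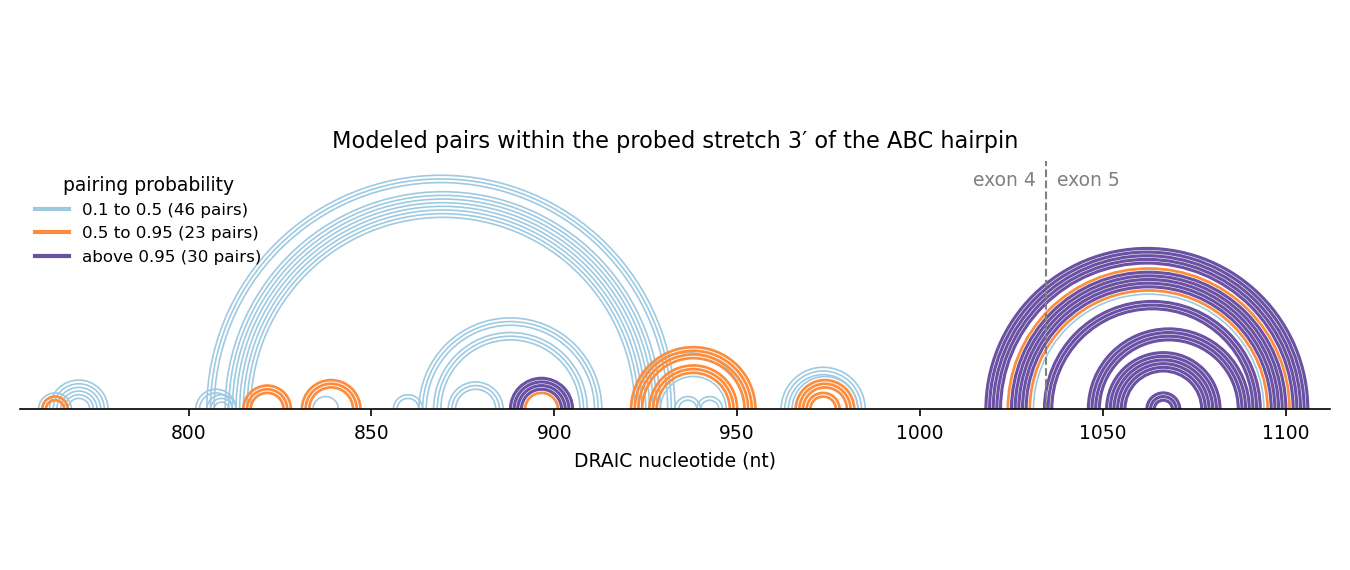
Member pairs with a probability above 0.1, drawn as arcs between their nts along the stretch (x axis, nt number of DRAIC); arc height is only the distance between partners. The 30 pairs above 0.95 lie in the arch over the junction of exons 4 and 5 and in the hairpin at nts 888 to 905, and the widest arcs of low probability join nts 805 to 817 with nts 922 to 933.

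By exon, 225 members had both nts in exon 4, 16 joined exon 4 with exon 5, and 15 had both nts in exon 5. These classes differed widely in probability. The median was 0.0226 for pairs within exon 4, 0.980 for pairs across the junction and 1.00 for pairs within exon 5. Only 4 of the 225 pairs within exon 4 were above 0.95, compared with 11 of 16 across the junction and 15 of 15 within exon 5. The exon 4 counts start at nt 759 and leave out ABC, which lies in the same annotated exon. ABC had 12 of its 22 listed pairs above 0.95.

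The junction helix had 28 pairs, of which 26 were above 0.95, and a median probability of 0.996. It held 46.7% of the summed probability of all members. Its 28 pairs involve 56 nts, and the other 33 nts between its ends are in bulges, internal loops and a terminal loop of 4 nts. The pairs fall into 6 uninterrupted stacks. From the open end inward, the first stack pairs nts 1018 to 1022 (UGUUG) with nts 1102 to 1106 (CAACA), and its 5 pairs ranged from 0.956 to 0.980. A bulged C at nt 1023 separates it from the second stack, in which nts 1024 to 1030 (AUGGAAG) face the U-rich nts 1095 to 1101 (UUUUUGU). This stack has no G–C pair. Of its 7 pairs, 4 are G–U wobbles and 3 are A–U pairs. The pairs in its middle had probabilities of 0.991 to 0.996, while its end pairs 1024-1101 (0.859) and 1030-1095 (0.869) were the lowest of the helix and the only ones at or below 0.95.

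The third stack contains the exon junction. It has 3 pairs, 1034-1093 (0.996), 1035-1092 (0.998) and 1036-1091 (0.997), and the exon boundary falls between the first and the next of them. A bulge of 9 nts (aacuucaaa, nts 1037 to 1045), which had no listed pair, follows on the exon 5 side. Beyond it lie the G-rich stacks of exon 5. The fourth stack pairs GGGC at nts 1046 to 1049 with GCCC at nts 1087 to 1090 in 4 G–C pairs. The fifth pairs GAGGGG at nts 1051 to 1056 with CCCCUC at nts 1077 to 1082, in 5 G–C pairs and 1 A–U pair. Its lowest pair was 1051-1082 at 0.997. The last, GUC at nts 1062 to 1064 with GGC at nts 1069 to 1071, closes the loop ccuu, with 0.994 at the innermost pair 1064-1069.

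On both sides of the exon boundary the helix differed in composition and in probability. The 13 pairs that join exon 4 with exon 5 comprised 3 G–C, 6 A–U and 4 G–U pairs, with a median of 0.980 and 11 above 0.95. The 15 pairs with both nts in exon 5 comprised 12 G–C, 2 A–U and 1 G–U pair, with a median of 1.00, and all 15 were above 0.95. By position alone, a transcript that has these exon 5 nts but not the end of exon 4 keeps both strands of the inner arm and lacks a strand of the outer arm. Of the 74 annotated transcripts, 47 hold all exon 5 nts of the stretch, and 43 hold the whole helix in a row.

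**Figure D2:**
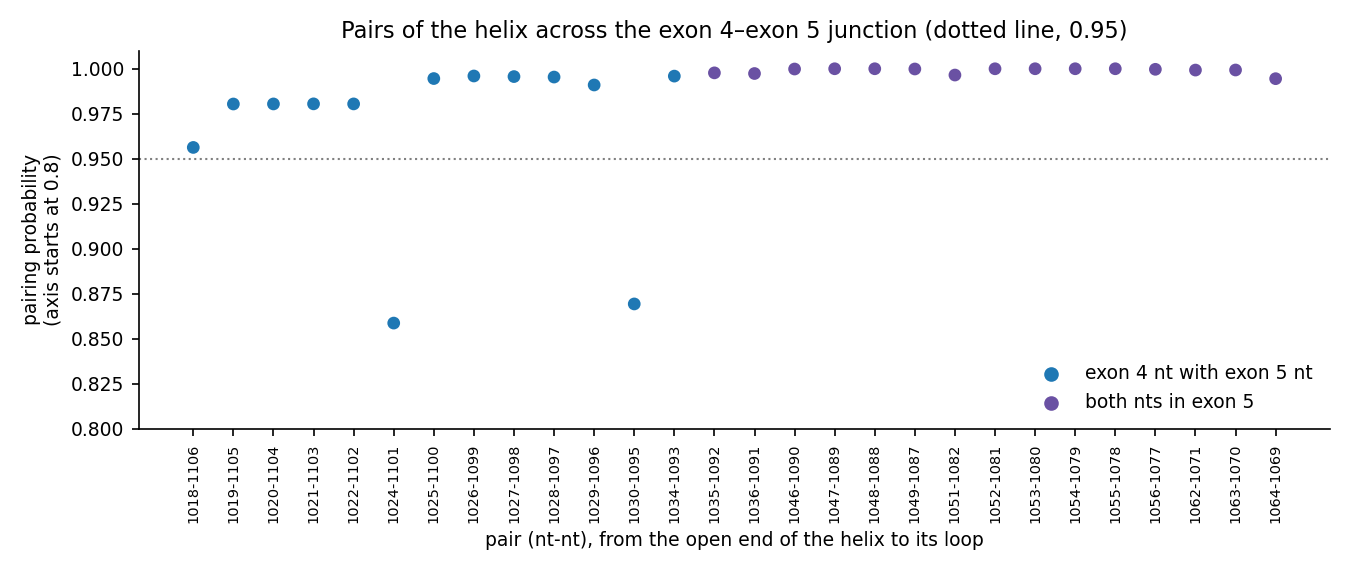
Modeled probability of each of the 28 pairs of the junction helix, in order from the open end to the loop (y axis starts at 0.8; dotted line, 0.95). The 15 pairs within exon 5 were all above 0.95, and the pairs 1024-1101 and 1030-1095 at the ends of the U-rich stack were the only ones below it.

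Competition for the nts of the junction helix was slight. Of all pairing by its 56 paired nts, 99.8% was in the helix itself, and 10 other listed pairs touched them. The most probable of these was 1031-1095 at 0.0184, followed by 1022-1118 at 0.0147. Among all members with an exon 5 nt, 28 of 31 belonged to the helix. The other 3 had probabilities of 0.0184 to 0.162, the highest being 1031-1094, which would extend the second stack toward the junction. The exon 5 nts therefore had almost no intermediate states. Of the 73 nts, 43 had a pair above 0.5, 28 had no listed pair at all and 2 lay between.

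Within the exon 4 part of the stretch, the hairpin at nts 888 to 905 was the best determined. Its 5 pairs comprised 1 G–C and 4 A–U pairs around a loop of 8 nts (uuaaaaau). The pair 888-905 had a probability of 0.980. The next 3 pairs, 889-904, 890-903 and 891-902, each had 0.995, and the loop-closing pair 892-901 had 0.902. As in the junction helix, nearly all of the pairing of these nts (99.8%) was in the hairpin, and the best competitor, 890-908, had 0.00354. This competitor was far higher in the folds without restraints described below.

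The hairpin at nts 831 to 847 came next. It has 3 pairs around a loop of 11 nts, of which 7 are A, and the probabilities were 0.917 for 831-847, 0.919 for 832-846 and 0.903 for 833-845. It held 96.8% of the pairing of its nts. Its strongest competitors joined nts 831 to 833 with nts 286 to 288, far 5′ in the RNA, at 0.0305.

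The other 3 hairpins shared their nts with alternatives. The hairpin at nts 815 to 828 has 3 pairs at 0.692 each, which was 87.8% of the pairing of its nts. The hairpin at nts 921 to 955 has 7 pairs in an outer stack of 4 and an inner stack of 3, the lowest being 928-948 at 0.546, and a median of 0.607, which was 67.6% of the pairing of its nts. The 5′ strands of both hairpins are complementary to each other. A further chain of 11 pairs joins nts 805 to 817 with nts 922 to 933, and it is printed because it shares paired nts with both hairpins, so that an RNA molecule can form it only without them.
Strand 805-817: CAUgaAAUGACAC
Strand 922-933: GUGUCAUUaAUG
In this chain CAC at nts 815 to 817, which pairs with GUG at nts 826 to 828 in the hairpin, pairs with GUG at nts 922 to 924. The chain had probabilities of 0.106 to 0.173 with a median of 0.172. Another competitor for the hairpin at nt 921 came from unprobed RNA, since nts 949 and 950 paired with nts 639 and 638 at 0.262 and 0.268.

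The hairpin at nts 966 to 982 has 5 pairs with a bulged U at nt 979. Its inner pairs 970-977 (0.873) and 969-978 (0.866) were higher than the outer pairs 968-980 (0.670), 967-981 (0.669) and 966-982 (0.665). The 3′ strand of the outer pairs also paired with nts 1136 to 1138, beyond the stretch, at 0.282 to 0.285. Below 0.5, the pair 965-983 (0.493) stacks directly on the outermost pair, followed by 963-984 (0.439) and 962-985 (0.393), and 964-983 (0.171) is an alternative to the first of these.

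Just 3′ of ABC, 3 arrangements of nts 759 to 778 excluded each other in part. A short hairpin had the pairs 760-767 (0.592) and 761-766 (0.593), the 2 members above 0.5 that belong to no helix, with 759-768 at 0.327 outside them. Nts 762 to 767 (UUCUGA) also paired with nts 773 to 778 (UUGGGA) in 6 pairs of 0.309 to 0.339. In the other arrangement, nts 771 to 776 paired with nts 656 to 661, on the other side of ABC, in 6 pairs of 0.502 to 0.523. Nts 656 to 661 had no measured reactivity. The first and the second share nts 766 and 767, and the second and the last share nts 773 to 776.

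Other chains below 0.5 differed in where their nts had stronger partners. Nts 863 to 869 paired with nts 907 to 913 in 6 pairs with a median of 0.182, whereas nts 909 to 913 had a median of 0.507 with nts 1195 to 1200. Nts 871 to 873 paired with nts 884 to 886 at a median of 0.149, whereas nts 877 to 886 had a median of 0.878 with nts 1284 to 1294. For the 3′ strands of both chains, the partner outside the stretch had the higher probability, and it had no measured reactivity. On the 5′ strand of the first chain, nts 863 and 864 had their highest pairs within the stretch. These were 857-863 at 0.232 and 856-864 at 0.231. For another weaker helix, the alternative partners given here lie within the stretch. Nts 805 to 807 paired with nts 811 to 813 at a median of 0.259, and with nts 931 to 933 at 0.106 to 0.109. In the loop of the hairpin at nt 921, the pair 929-947 (0.438) was followed inward by 933-940 (0.163) and 934-939 (0.104).

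Where partners lay changed along the stretch. By summed probability, 67.1% of the pairing of nts 759 to 1107 stayed within it, 21.8% went to nts 3′ of it, 11.0% to nts 5′ of ABC and 0.102% to ABC itself. For nts 759 to 950, which belong to the functional 705-950 fragment of the study, 59.8% stayed within the stretch, 20.6% went 5′ of ABC and 19.4% went 3′ of the stretch. For the rest of exon 4, nts 951 to 1034, these values were 51.7%, 5.21% and 43.1%. Here nts 987 to 1004 had 15 pairs of 0.559 to 0.810 (median 0.703) with nts 1112 to 1132, more pairs than any exon 4 hairpin of the stretch. Nts 3′ of the stretch had no measured reactivity. For the exon 5 nts, 99.8% stayed within. The same pairs between ABC and the stretch were 0.495% of the pairing of ABC nts, and 99.5% of that pairing was within ABC.

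**Figure D3:**
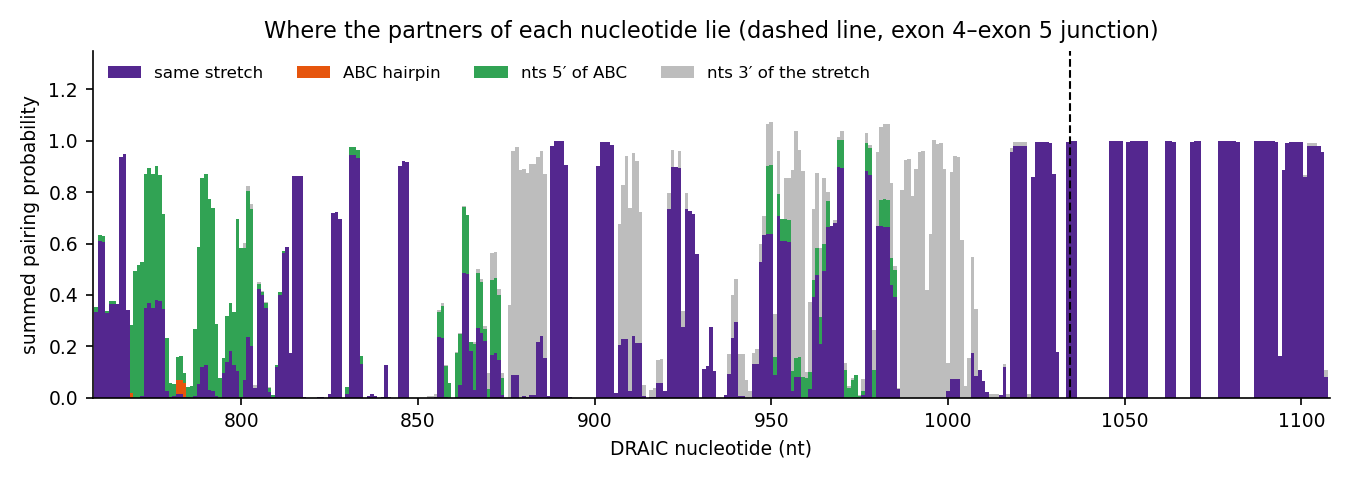
Summed pairing probability of each nt (y axis) along the stretch (x axis, nt number), divided by where the partner lies. Nts 759 to 814 hold 67.5% of the pairing with nts 5′ of ABC, nts 877 to 1004 hold 94.9% of the pairing with nts 3′ of the stretch, and after the dashed junction line nearly all of each bar is pairing within the stretch.

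The nts showed the same division. A pair above 0.95 was found for 41 of the 73 exon 5 nts (56.2%), all in the junction helix, and for 19 of the 276 exon 4 nts (6.88%). Of these 19, 11 lie in the exon 4 strand of the junction helix and 8 in the hairpin at nt 888. The junction helix thus supplied nts to both sides of this comparison. Of the 1386 nts outside the stretch, most of them unprobed, 74 (5.34%) had such a pair. These include 24 of the 54 ABC nts (44.4%). The pairing entropy of a nt, −Σp log10 p over its listed pairs, is near 0 when its partner or its lack of one is settled. Its mean was 0.206 over the exon 4 nts and 0.00778 over the exon 5 nts. For comparison, it was 0.0346 over ABC and 0.257 over all nts outside the stretch, most of which were not probed. Summed probabilities exceeded 1 at 10 nts, all in exon 4, with a highest sum of 1.07, so that listed values there are not exact shares.

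Bases differed in how much they paired. Of the 349 nts, 119 (34.1%) are A. Among the 94 nts with a summed probability under 0.05, 58 (61.7%) were A and 4 (4.26%) were G, whereas among the 177 nts at 0.5 or more, 32 (18.1%) were A and 51 (28.8%) were G. The median summed probability was 0.0582 for A, 0.569 for U, 0.721 for C and 0.921 for G. All 4 runs of at least 8 nts under 0.05 contained A at 4 or more positions. Of these runs, 3 are loops or a bulge already printed, and the other is aaaaagaa at nts 848 to 855, directly 3′ of the hairpin at nt 831. Pair types changed less. G–C pairs were 45.3% of all 256 members and 52.8% of those above 0.5, A–U pairs 41.4% and 37.7%, and G–U pairs 13.3% and 9.43%. The median distance between partners was 16 nts over all members and 41 nts over those above 0.95, up to 88 nts at the open end of the junction helix.

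The probabilities depended on the SHAPE restraints or on the software that used them, which cannot be told apart here. ViennaRNA was run on all 1735 nts with no restraints. In that fold the highest pair of the junction helix had 0.0204, its outer arm had no pair of 0.001 or more, and its exon 5 arm had a median of 0.0195. Instead, nts 1047 to 1056 formed 9 pairs with nts 1063 to 1072 (median 0.781). Nts 1027 to 1030 formed 4 pairs with nts 1039 to 1042 (median 0.785), and no pair of these helices is listed in the deposited model. Another helix of this fold joined nts 885 to 887 with nts 911 to 913 in 3 pairs (median 0.546). The authors list these 3 pairs, with 0.00667 as the middle value. The pair 890-908, the best competitor of the hairpin at nt 888, reached 0.475 here. The exon 4 hairpins had medians of 0.487 (888-905), 0.486 (966-982), 0.257 (815-828), 0.207 (921-955) and 0.153 (831-847). All were lower than in the deposited model, and the chain from nt 805 to nt 933 was higher, at 0.229 against 0.172.

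When nts 759 to 1107 were folded alone, again without restraints, the hairpin at nt 921 had a median of 0.820 and was the only helix of the 6 with a median above 0.5. The others had medians of 0.186 (815-828), 0.147 (888-905), 0.0412 (966-982), 0.0276 (831-847) and 0.00416 (junction helix). The chain from nt 805 to nt 933 had a median of 0. In the hairpin 966-982, the inner pairs 969-978 and 970-977 still had 0.665 and 0.667. In the fold of the whole RNA these 2 pairs had 0.699 and 0.720. In the fold of the stretch alone, 20 pairs joined nts 796 to 828 with nts 1023 to 1051 (median 0.645). None of these is listed in the deposited model. Nts 884 to 893 formed 9 pairs with nts 905 to 914 (median 0.843), among them 890-908 at 0.844. This helix shares paired nts with the hairpin at nt 888, whose median here was 0.147. All 9 pairs are listed by the authors, with 0.00354 as the middle value. Reactivities of single nts, which would show the measurement at each position, are not analysed here.

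**Figure D4:**
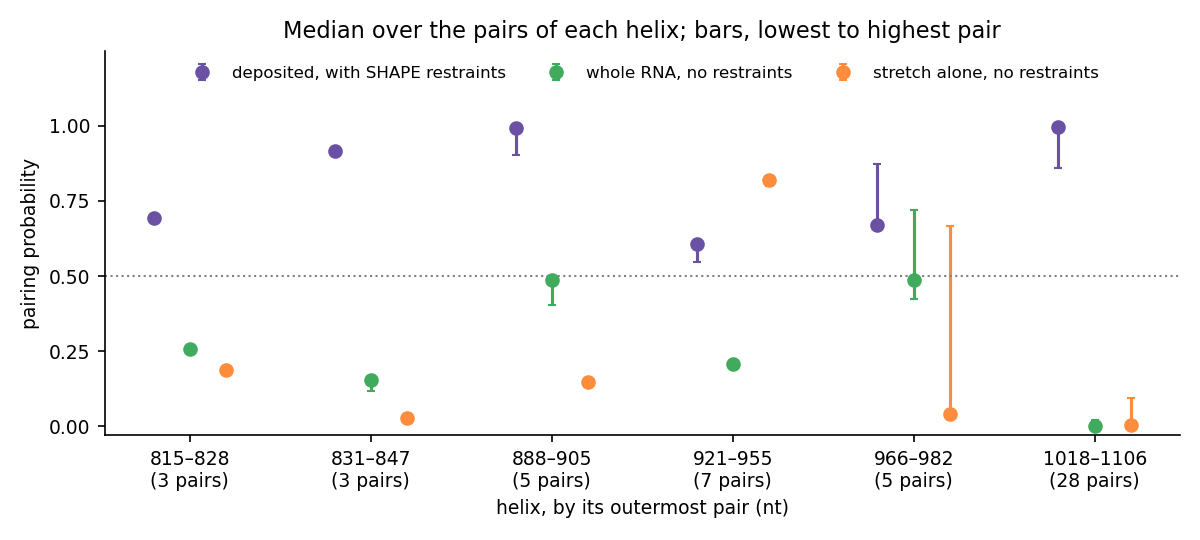
Median pairing probability (points) of the 6 helices in the deposited model and in 2 folds without restraints, with bars from the lowest to the highest pair of each helix (x axis, outermost pair; dotted line, 0.5). The junction helix had 0.996 in the deposited model and values near 0 in both folds, and the hairpin at nt 921 was the only one higher in the fold of the stretch alone.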

How the data were processed

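LNCaP RNA was probed in 2 libraries, 1 with 5NIA and 1 with DMSO. The authors used ShapeMapper2 to count mutations and SuperFold to model the RNA with the profile as restraints; versions, settings, the reference sequence and depth are not given in the sources used here. The deposited values are the −log10 of each listed pair's probability, a model output and not a test p-value, and were converted back to probabilities. Numbering was placed on DRAIC-244 (GENCODE release 44), where 3469 of 3469 pairs were canonical, with 0 mismatches to GRCh38. Pairs that are not listed counted as 0. Helices were defined as in the results and named by that rule; weaker chains used 0.1 and runs of unpaired nts used 0.05, chosen after the values were seen. The members and rules were chosen with earlier results of these data known. The helix finder was tested on simulated data. ViennaRNA 2.7.2 gave the folds without restraints (37 °C, at most 600 nts between partners, pairs under 0.001 left out). Alternatives were compared by margins of 0.05 for a probability, 5 points for a percentage and at most 1.5 times otherwise. Tables were made with numpy 2.4.6 under Python 3.11.15 and figures with matplotlib 3.10.9.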

Additional observations from a re-analysis of the deposited data

How the results depend on the processing

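With 1 model from both libraries there was no test to pair, and read depth is unknown. No paired analysis was possible because 1 deposited column holds both libraries. The 9 results had 31 alternative values, of which 11 stayed within the margins given with the processing, which compare values and not which pairs give them. In the fold of the whole RNA without restraints, 8 of 9 results moved: 20 pairs were above 0.5 and 0 above 0.95, there were 3 helices, the median of the junction helix was 0, the percentages of nts with a pair above 0.95 were 0 in exon 4 and 0 in exon 5, the median entropy was 0.326 against 0.0988, and G–C pairs were 65.0% of those above 0.5. The pairing kept inside the stretch was 63.5%. The fold of the stretch alone, added after the data were seen, gave 84 pairs above 0.5, 3 above 0.95, a median of 0.00416 for the junction helix, 0% of exon 5 nts above 0.95, an entropy of 0.185 and 46.4% G–C pairs. Within the margins, it gave 9 helices against 6 and 2.17% of exon 4 nts above 0.95 against 6.88%; of the 9 helices, only that at nts 921 to 955 has pairs above 0.5 in the deposited model. The cause of these shifts was not tested. Of the other 14 values, 8 stayed within the margins. Helices numbered 3 at a threshold of 0.8, 2 at 0.95 and 12 with no unpaired nts between pairs, which splits chains at every bulge. By summed probability 16.7% of exon 4 nts passed 0.95. The mean entropy of the stretch was 0.165. With equal weight for each pair above 0.5, counted at each of its nts in the stretch, 75.2% of pairing stayed inside. There were 53 such pairs within the stretch and 35 with 1 nt in it.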
